A study of Mus musculus with 7 samples.

Results

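The genes described here are 8 members of the interleukin-1 family and its machinery in leukocytes of the mouse heart after myocardial infarction: the agonists Il1a and Il1b, the antagonist Il1rn, the receptors Il1r1, Il1r2 and Il1rap, the related cytokine Il18, and the protease Casp1. They were taken by gene symbol, and each of the 8 was found once in all 7 count matrices, among 27514 genes that the 2 annotations of the matrices share. The study followed cardiac inflammation by droplet single-cell RNA sequencing, which counts unique molecular identifiers (UMIs) at the 3′ end of transcripts, after the left descending coronary artery had been ligated, a ligation that the labels call permanent for the blood and heart pool. All mice were C57BL6/J, and the age, given for that pool, was 8 to 10 weeks.

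The cells came in separate sets. In the CD45+ libraries, leukocytes were sorted from hearts of male mice without infarction (steady state, 5 mice) and at day 1 (5 mice), day 3 (5 mice), day 5 (5 mice) and day 7 (3 mice) after infarction, each day as 1 library. The share of neutrophils was lowered on purpose before loading. In the CD11b+ heart pool, myeloid cells of male mice at day 1 (5 mice), day 3 (5 mice) and day 5 (3 mice) were marked by hashtag antibodies and run as 1 library. In both sets mice had received an antibody to CD45.2 into the blood shortly before they were killed, and marked cells were left out, so that the sorted cells were those outside the vessels. In the blood and heart pool, CD11b+ cells negative for Ter119, B220 and NK1.1 came from blood or ischaemic heart of mice without surgery (3 mice), 1 day (3 mice) or 3 days (3 mice) after sham surgery, and 1 day (5 mice) or 3 days (5 mice) after infarction, under 7 hashtags. Heart tissue came from infarcted mice, the sex is not given, and the ratio of Ly6G+ to Ly6G- cells was set to about 1 to 1. The sources used here do not say which of these hashtags is which sample, so they are given by number, with no comparison between conditions. Mice were pooled within each library or hashtag.

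Interleukin-1 alpha and beta bind the same receptor, Il1r1, which needs the accessory chain Il1rap to signal. Il1rn encodes a soluble ligand that occupies Il1r1 without activating it, and Il1r2 is a decoy that binds ligand but lacks the signalling domain. Interleukin-1 beta and interleukin-18 are made as inactive precursors that caspase-1, activated on inflammasomes, cuts into their active forms, so that mRNA alone does not show how much active cytokine is present; in the infarcted heart, neutrophils and monocyte-derived cells are known sources.

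All 8 are protein-coding in GENCODE M21 on GRCm38. Il1b lies on chromosome 2 at 129364570 to 129371139 (minus strand), and Il1a on the same strand at 129299610 to 129309972, 54597 bases away. Il1rn lies apart from them on chromosome 2 at 24336853 to 24351494 (plus strand). On chromosome 1, Il1r2 (40074079 to 40125231) and Il1r1 (40225080 to 40317257), both on the plus strand, are 99848 bases apart. Il1rap is on chromosome 16 (26581704 to 26730117), and chromosome 9 holds Casp1 (5298517 to 5307265) and Il18 (50554827 to 50581840), all on the plus strand.

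The promoters of both agonists and of the antagonist are shown because Il1a, Il1b and Il1rn were the ligand genes that fell with time in monocytes/macrophages, below. The windows run 5′ to 3′ along the gene from 250 bases before to 50 after the RefSeq start (GRCm38.p6), at chr2:129309923-129310222 for Il1a (minus strand), chr2:129371090-129371389 for Il1b (minus strand) and chr2:24336610-24336909 for the most upstream of the Il1rn starts (plus strand). Capitals mark the letters TATAAA (the TATA box) and TGANTCA (the AP-1 site), searched on both strands.
Il1a: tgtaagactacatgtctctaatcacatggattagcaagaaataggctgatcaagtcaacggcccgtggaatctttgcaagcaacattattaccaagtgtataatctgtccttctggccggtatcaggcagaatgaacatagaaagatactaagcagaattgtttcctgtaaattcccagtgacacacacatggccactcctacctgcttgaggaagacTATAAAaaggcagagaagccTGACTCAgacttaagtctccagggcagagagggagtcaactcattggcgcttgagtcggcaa
Il1b: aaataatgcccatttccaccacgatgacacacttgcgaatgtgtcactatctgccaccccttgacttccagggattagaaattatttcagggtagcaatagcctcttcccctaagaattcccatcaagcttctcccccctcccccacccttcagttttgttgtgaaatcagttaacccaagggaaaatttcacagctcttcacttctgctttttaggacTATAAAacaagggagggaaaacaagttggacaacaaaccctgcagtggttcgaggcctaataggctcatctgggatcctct
Il1rn: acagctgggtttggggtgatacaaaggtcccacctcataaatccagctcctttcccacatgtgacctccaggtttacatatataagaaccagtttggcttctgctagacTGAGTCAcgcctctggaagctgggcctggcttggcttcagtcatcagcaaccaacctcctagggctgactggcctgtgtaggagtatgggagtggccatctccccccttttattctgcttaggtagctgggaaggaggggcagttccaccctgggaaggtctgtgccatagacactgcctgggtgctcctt
Both agonists had TATAAA on the strand of the gene, with its first base 32 bases before the start in Il1a and 31 in Il1b, and 1.75% of 32851 mouse promoter windows had it on that strand 25 to 35 bases before the start. Anywhere in the window and on either strand, TATAAA was found in 13.6% of promoters and TGANTCA in 7.81%. The window of Il1a held TGACTCA with its first base 12 before the start, and that of Il1rn held TGAGTCA 141 before it. Among the 8 genes, with 11 starts in the table, 4 had TATAAA and 2 had TGANTCA in any window. Which start the counted transcripts came from is not shown by 3′ counts, and the letters are a description of sequence.

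Cells were put into classes by clustering with the 8 genes and 32 further genes of the pathway left out, so that the classes did not rest on them. The CD45+ libraries gave 4745 cells, of which 2588 were monocyte/macrophage-like and 426 neutrophil-like. The CD11b+ heart pool gave 2486 and 1474, and the blood and heart pool 3303 and 6341. Csf3r, the receptor for granulocyte colony-stimulating factor, stood at 315 to 3540 CPM (UMIs of the gene as a part of all UMIs of the sum, scaled to 1e+06) in neutrophils and 27.5 to 217 CPM in monocytes/macrophages over the 3 sets, and Csf1r, the receptor for the macrophage growth factor, at 65.6 to 147 and 386 to 540 CPM. Both genes were among the markers used to name the clusters, so their split between the classes is no separate check. The median of the Ly6G antibody, whose counts took no part in clustering or naming, was 317 UMIs on neutrophils against 115 on monocytes/macrophages in the CD11b+ heart pool. Clusters that met no naming rule stayed unnamed, with 263 cells in the CD45+ libraries, 322 in the CD11b+ heart pool and 19 in the blood and heart pool. Those 322, led by H2-Eb1, H2-Aa and H2-Ab1, numbered 18, 110 and 194 on days 1, 3 and 5. They held 448 CPM of Csf1r, 1733 of C1qa, 33.4 of Csf3r and 20.9 of Flt3. The 263 of the CD45+ libraries held 337 CPM of Csf1r, 2077 of C1qa, 18.6 of Csf3r and 12.5 of Flt3. Of them, 155 were in cluster 4, led by Fabp4, Jchain and Dcn, with 4 endothelial naming markers raised. The other 108 were in cluster 11, led by Cxcl10, Rsad2 and Isg15, with 8 monocyte/macrophage naming markers raised. Cluster 11 held 28 of the 31 unnamed cells of CD45+ day 1. The monocyte/macrophage levels and changes below leave all unnamed cells out. A class had 40 to 994 neutrophils or 218 to 1208 monocytes/macrophages per day, with 104690 to 4059931 and 2173835 to 39100204 UMIs. The fewest were the 40 neutrophils of the CD45+ day 5 library. No 2 libraries shared over 0.478% of barcodes of the smaller one.

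Il1b, the agonist that needs cleavage, was in neutrophils at 24828.5, 19845 and 15945 CPM on days 1, 3 and 5 in the CD11b+ heart pool. In the CD45+ libraries the same days had 7569, 13244.5 and 14844 CPM. The pool was thus highest on day 1 and the CD45+ libraries lowest, and the ranges of the days overlapped. A list of 12 early response and heat shock genes was chosen after the values were seen. Its summed level moved with Il1b in neutrophils, at 4311, 7261 and 9179 CPM on days 1, 3 and 5 of the CD45+ libraries. In the pool it was 13135, 11293 and 9690.0 CPM, with UMIs of 11 or 12 of the 12 in each sum. Single genes did not all move so. In pool neutrophils Junb, Egr1 and Dusp1 fell from day to day. Jun, Hspa1a, Hspa1b, Hspa8 (426, 535 and 925 CPM) and Dnajb1 rose, and the rest had neither order. In monocytes/macrophages, where Il1b fell over these days, the list rose. It was at 5455, 7253 and 8203 CPM in the CD45+ libraries and 6765, 6955.5 and 7186 CPM in the pool. The part of the list in the levels of Il1b was not tested. In monocytes/macrophages Il1b was at 8549, 4452 and 2387 CPM on days 1, 3 and 5 of the CD45+ libraries and at 6273, 2527 and 1618 CPM in the pool. Both day 1 values lay above every value of day 3, and day 5 lay below day 1 throughout. Il1b fell in monocytes/macrophages between day 1 and day 5 by 2.16 on the log2 scale (SE 0.16, edgeR quasi-likelihood adjusted p = 0.00471) and between day 1 and day 3 by 1.36 (SE 0.15, edgeR adjusted p = 0.042). In neutrophils the fitted change from day 1 to day 5 was -0.89 (SE 0.53, edgeR adjusted p = 0.334), and it was 0.15 when the sums were scaled by total UMIs alone, so its sign depended on the scaling. Levels in CPM here rest on total UMIs alone. Fitted changes use a further scaling between sums (TMM), whose factors ran from 0.536 to 1.47 in neutrophils, so a fitted change can differ from the change in CPM.

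**Figure D1:**
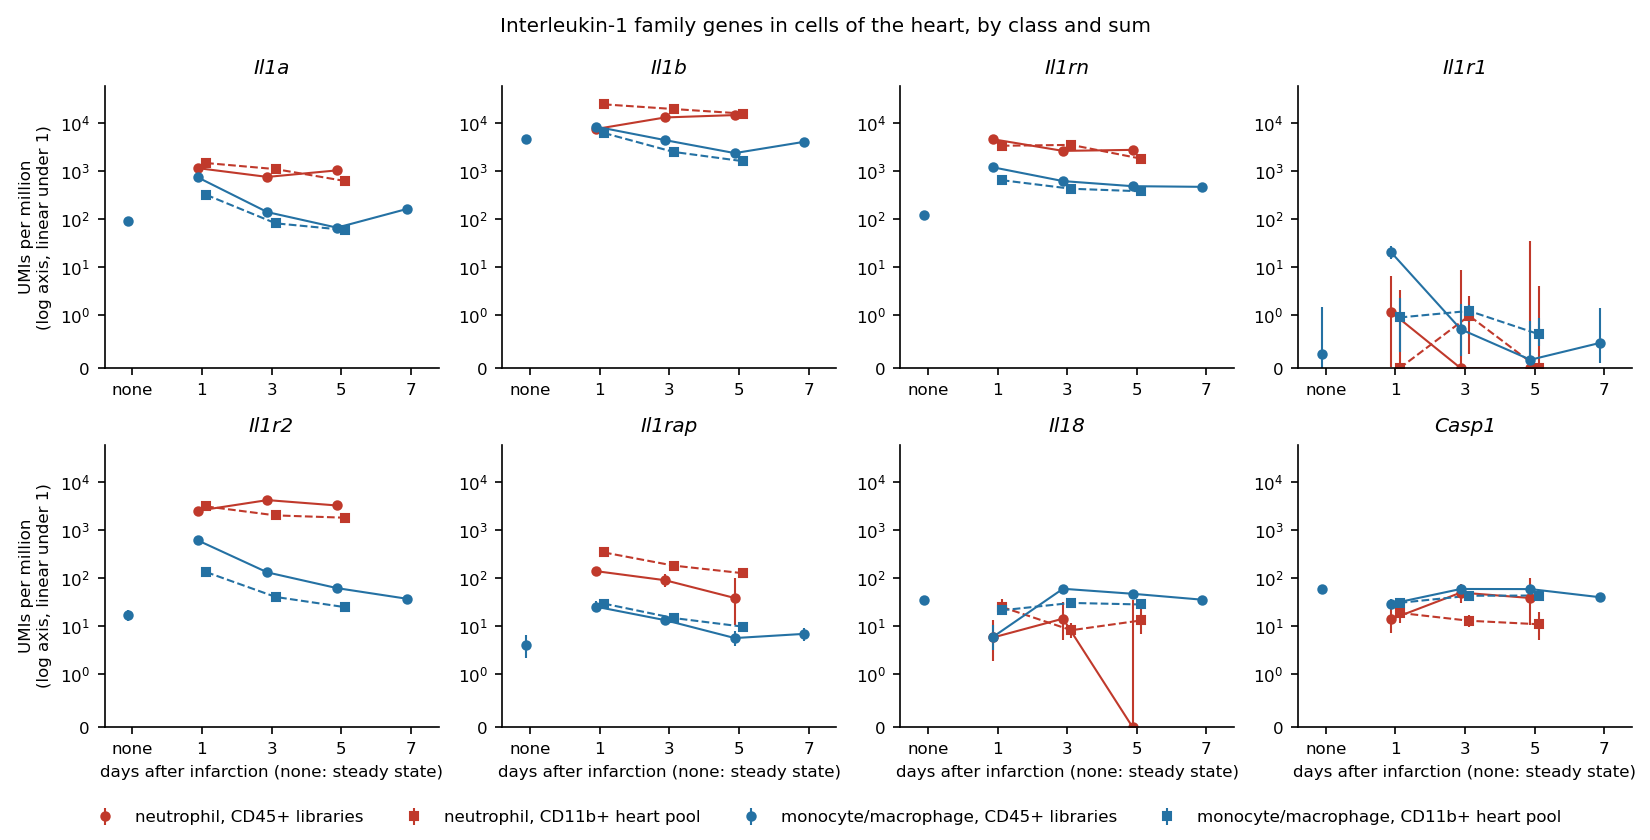
Level of each of the 8 genes in CPM (log axis, linear under 1) against day after infarction, with steady state at the left, in neutrophils (red) and monocytes/macrophages (blue) of the CD45+ libraries (circles) and the CD11b+ heart pool (squares); bars are exact Poisson 95% intervals, which cover counting error only, and many are smaller than the symbols. Il1r2 and Il1rap lie higher in neutrophils than in monocytes/macrophages in each of the 6 sums, and Il1r1 reaches 20.2 CPM in 1 sum.

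Outside infarction and at later times there was 1 library each, so no test was made. Steady-state monocytes/macrophages held 4679 CPM of Il1b (95% interval 4611 to 4748), between days 1 and 3 of the same set, and day 7 held 4113 CPM. These steady-state cells also stood apart in the same 12 early response and heat shock genes. All 12 had UMIs in the sum, which came to 23132 CPM against 5455 to 8203 CPM on days 1 to 7, with Hspa1a, a heat shock protein, at 3446 CPM against 114 to 172 CPM. The part of these genes in the steady-state level of Il1b was not tested. In the blood and heart pool, whose heart tissue was dissociated mechanically and not digested for 1 hour at 37 °C, the same list came to 2052 to 4386 CPM in monocytes/macrophages, and Il1b to 85.6 to 546 CPM. Between that pool and the other sets the dissociation, the source of cells and the library cannot be told apart.

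Il1b UMIs were also found in classes not known to make it, as free RNA in droplets can give. On day 7 of the CD45+ libraries B cells held 459 CPM of Il1b, T cells 365 and NK cells 510, against 4113 CPM in monocytes/macrophages. With cells thinned to 2000 UMIs, 61.2% of the 963 B cells (unthinned 75.9%, median 2756 UMIs per cell) and 85.1% of the 558 monocytes/macrophages (unthinned 98.2%, median 10586 UMIs) had an Il1b UMI, so levels are given here rather than shares of cells.

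Il1a, the agonist that is active without cleavage, was at 1482, 1106 and 624 CPM in neutrophils of the CD11b+ heart pool and at 1161, 760 and 1041 CPM in those of the CD45+ libraries, by day 1, 3 and 5. Monocytes/macrophages had 744, 140 and 66.4 CPM in the CD45+ libraries and 322, 81.8 and 59.5 CPM in the pool. In this class day 1 lay above days 3 and 5 in both sets with no overlap. Il1a fell there by 2.45 on the log2 scale from day 1 to day 3 (SE 0.29, edgeR adjusted p = 0.0445) and by 3.21 from day 1 to day 5 (SE 0.31, edgeR adjusted p = 0.00706). In neutrophils it fell by 1.71 from day 1 to day 5 (SE 0.43, edgeR adjusted p = 0.024) with TMM scaling. With total UMIs alone, as in the CPM, that change was -0.66 and did not pass (edgeR adjusted p = 0.235). At steady state monocytes/macrophages had 89.5 CPM and at day 7 162 CPM. With cells thinned to 2000 UMIs, an Il1a UMI was seen in 45.5% of CD45+ monocytes/macrophages on day 1 (exact binomial 95% interval 38.7% to 52.5%, unthinned 74.8% at a median of 9747 UMIs) and in 3.22% of day 7 B cells (unthinned 3.95%).

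Il1rn, the receptor antagonist, was at 4632, 2656 and 2789 CPM in CD45+ neutrophils on days 1, 3 and 5 and at 3399, 3543 and 1830 CPM in those of the pool. Day 3 of the pool thus lay above day 1, and the days overlapped except that both day 1 values exceeded both of day 5. Monocytes/macrophages held 1202, 622 and 487 CPM in the CD45+ libraries and 651, 431 and 382 CPM in the pool. From day 1 to day 5 Il1rn fell by 1.30 on the log2 scale in monocytes/macrophages (SE 0.20, edgeR adjusted p = 0.0205) and by 1.85 in neutrophils (SE 0.47, edgeR adjusted p = 0.0254). With total UMIs alone the neutrophil change was -0.79 and did not pass (edgeR adjusted p = 0.157). The steady-state level in monocytes/macrophages, 125 CPM (113.6 to 136.2), lay below all 7 infarct sums of the class, the lowest of which was 382 CPM, while Il1b at steady state did not.

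The number of Il1rn UMIs per Il1b UMI sets the antagonist beside the agonist within the same cells. Both are 3′ counts, not scaled by length, and capture can differ between genes, so the ratio is compared between sums and not read as a ratio of proteins. In monocytes/macrophages it was 0.0266 at steady state (95% interval 0.0242 to 0.0291). It was 0.141, 0.140, 0.204 and 0.115 on days 1, 3, 5 and 7 of the CD45+ libraries and 0.104, 0.170 and 0.236 on days 1, 3 and 5 of the pool. Day 5 was highest in each set, and steady state lay under every infarct sum. In neutrophils the ratio was 0.612, 0.201 and 0.188 in the CD45+ libraries and 0.137, 0.179 and 0.115 in the pool, so that the first value stood alone. It was 0.323 when cells were classed by their own marker UMIs instead of by cluster. In the blood and heart pool it lay between 0.0581 and 0.163 in monocytes/macrophages.

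**Figure D2:**
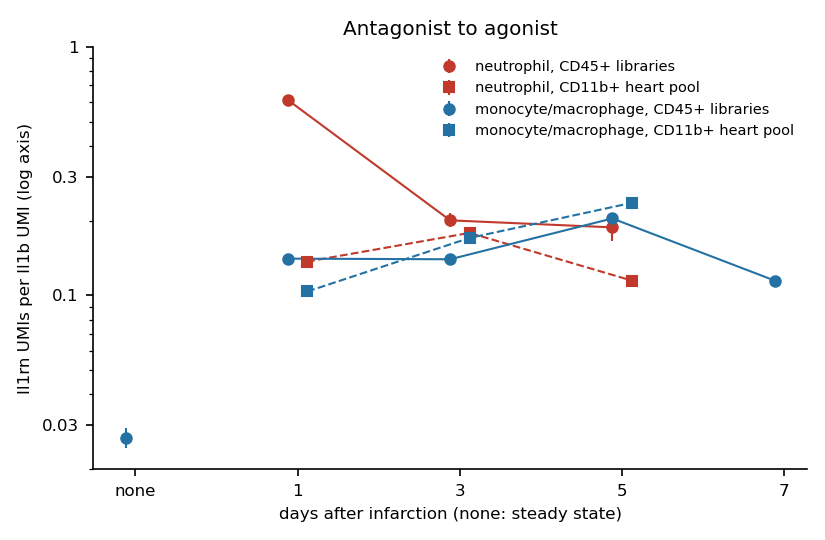
Il1rn UMIs per Il1b UMI (log axis) against day after infarction, with steady state at the left, in neutrophils (red) and monocytes/macrophages (blue) of the CD45+ libraries (circles) and the CD11b+ heart pool (squares); bars are 95% intervals that cover counting error only. Steady-state monocytes/macrophages, at 0.0266, lie below the 7 infarct sums of the class, which run from 0.104 to 0.236.

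Il1r2, the decoy receptor, was higher in neutrophils than in monocytes/macrophages in all 6 pairs of sums. Neutrophils held 2525, 4217 and 3257 CPM on days 1, 3 and 5 of the CD45+ libraries and 3112, 2022 and 1808 CPM in the pool, with overlapping days. Its fitted change from day 1 to day 5 in neutrophils was -1.26 on the log2 scale (SE 0.47, edgeR adjusted p = 0.104), and -0.25 with total UMIs alone (edgeR adjusted p = 0.679). Monocytes/macrophages held 610, 131 and 61.5 CPM in the CD45+ libraries and 133, 40.2 and 24.6 CPM in the pool. Il1r2 fell there by 2.23 from day 1 to day 3 (SE 0.26, edgeR adjusted p = 0.0442) and fell by 3.14 from day 1 to day 5 (SE 0.27, edgeR adjusted p = 0.00605). The 19 neutrophil markers moved with it: their summed level in monocytes/macrophages was 22091, 2801 and 857 CPM in the CD45+ libraries and 3139, 1420 and 1168 CPM in the pool, with UMIs of 17 to 19 of the 19 in each sum.

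That marker level was 9.07%, 2.64% and 1.36% of the level in neutrophils of the same CD45+ library, and 2.97%, 2.68% and 1.79% in the pool. Il1r2 in monocytes/macrophages stood at 24.2%, 3.11% and 1.89% of its neutrophil level in the CD45+ libraries and at 4.26%, 1.98% and 1.36% in the pool. It was thus near the marker share on days 3 and 5 and above it on day 1. When neutrophil RNA was subtracted in that proportion, an alternative chosen after seeing the data, 62.5% of the Il1r2 UMIs of CD45+ day 1 monocytes/macrophages and 30.3% of those of the pool were left. The subtraction takes all marker UMIs in monocytes/macrophages as RNA of neutrophils, which was not tested. Where monocytes/macrophages made marker RNA themselves, it removes too much. On days 3 and 5 it left 134 of 894 UMIs and 108 of 386 UMIs in the CD45+ libraries and none in the pool. The Il1r2 change from day 1 to day 5 was then -6.70 and no longer passed (edgeR adjusted p = 0.052), a fitted value that depends on the prior count where sums are at 0. The calls of Il1a, Il1b, Il1rn and Il1rap in that comparison were kept. From day 1 to day 3 no call was kept, with changes no smaller than before: -2.68 for Il1a (edgeR adjusted p = 0.0676), -1.46 for Il1b (edgeR adjusted p = 0.0583) and -6.45 for Il1r2 (edgeR adjusted p = 0.142).

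**Figure D3:**
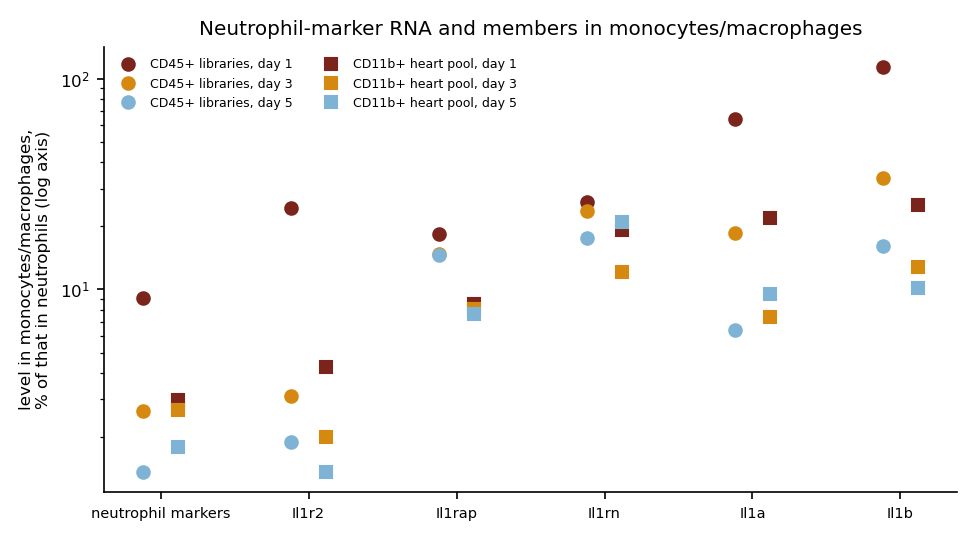
Level in monocytes/macrophages as a percent of that in neutrophils of the same day (log axis) for the sum of 19 neutrophil markers and for 5 of the genes, on days 1, 3 and 5 of the CD45+ libraries (circles) and the CD11b+ heart pool (squares). Il1r2 on days 3 and 5 lies between 1.36% and 3.11%, near the markers at 1.36% to 2.68%, and Il1b lies between 10.1% and 113%.

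Il1rap, the accessory chain for signalling, was at 341, 181 and 126 CPM in neutrophils of the pool on days 1, 3 and 5 and at 139, 89.7 and 38.2 CPM in those of the CD45+ libraries. The order of days was the same in each set, and days of the 2 sets overlapped. Il1rap fell in neutrophils from day 1 to day 5 by 2.46 on the log2 scale (SE 0.44, edgeR adjusted p = 0.00452), the largest of the 3 calls there. With total UMIs alone the fall was smaller, at -1.52 (edgeR adjusted p = 0.0215). Monocytes/macrophages had 29.2, 14.6 and 9.64 CPM in the pool and 25.3, 13.2 and 5.58 CPM in the CD45+ libraries, with no overlap between days. There it fell by 2.07 from day 1 to day 5 (SE 0.26, edgeR adjusted p = 0.013).

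Il1r1, the signalling receptor, was at or under 1.22 CPM in 11 of the 12 sums of days 1 to 5, 4 of them with 0 UMIs, which at the 40 neutrophils of CD45+ day 5 allow up to 28.7 CPM, and did not enter the tests, being under the filter on low counts. The exception was day 1 monocytes/macrophages of the CD45+ libraries, with 44 UMIs or 20.2 CPM (14.7 to 27.2), found in 38 of 218 cells. In the same class and on the same day the pool had 5 UMIs or 0.953 CPM (0.31 to 2.22), so the value was not seen in the second set. Neutrophils of that CD45+ library had 1.15 CPM. Cluster 14 of the CD45+ cells, led by Saa3, Cxcl3 and Arg1 and made up of day 1 cells for 200 of its 201, held 20.9 CPM on that day. In the day 1 sum the fibroblast and endothelial marker lists came to 131 and 41.4 CPM, below their levels on days 3 to 7 (242 to 375 and 60.3 to 124 CPM). Their part in the Il1r1 value was not tested.

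Il18 and Casp1, the second cytokine and the protease, were at low levels in both classes. Il18 in monocytes/macrophages was at 5.98, 59.6 and 46.8 CPM on days 1, 3 and 5 of the CD45+ libraries and at 21.2, 30.2 and 28.0 CPM in the pool. Day 1 was the lowest in each set, and the fitted change to day 3 of 1.25 on the log2 scale (SE 0.58) did not pass (edgeR adjusted p = 0.33). Without the pool's day 1 sum it was 2.99 and passed (edgeR adjusted p = 5.49e-09), which leaves the CD45+ day 1 library as the lone sample of that day. Neutrophils held 0 to 24.9 CPM, and 0 UMIs among the 104690 of CD45+ day 5 allow up to 28.7 CPM. Casp1 was at 29.0 to 59.0 CPM in monocytes/macrophages over the 6 sums and at 10.8 to 49.6 CPM in neutrophils. In the main setting its change passed in no comparison of days (edgeR adjusted p of 0.157 to 0.998 in monocytes/macrophages and of at least 0.488 in neutrophils). Its log2 changes from day 1 in monocytes/macrophages of the CD45+ libraries were 0.75 to day 3 and 0.69 to day 5. In those of the pool they were 0.28 and 0.29. Without the pool's day 1 sum the fitted changes of Casp1 were 0.75 and 0.73. The monocyte/macrophage markers in neutrophils stood at 11.3% to 28.6% of their own class, and their part in the neutrophil levels of Casp1 and Il18 was not tested.

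Across the members, day 5 against day 1 in monocytes/macrophages had 5 of 7 tested genes lower and none higher, where 10.8% of 10509 genes were called in either direction and 6.24% were lower. The median log2 change of the 7 was -2.07 against -0.02 over all genes tested. Day 3 against day 1 had 3 of 7 lower, with 0.742% of all genes called and 0.58% lower, and a member median of -1.20. Day 5 against day 3 had none, with 0.0285% of genes called, although 4 of the 7 members had an unadjusted edgeR p under 0.05 and DESeq2 called 1. In neutrophils day 5 against day 1 had 3 of 7 lower, where 7.65% of 6200 genes were called and 5.55% were lower, and the medians were -1.56 and -0.03. Day 3 against day 1 had 0 of 7 by edgeR with 2.5% of genes called, 3 at an unadjusted p under 0.05, and 1 by DESeq2. Day 5 against day 3 had 0 of 7 by edgeR with 0.0% called, 1 at an unadjusted p under 0.05, and none by DESeq2. These comparisons share the sums of a day with one another.

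The neutrophil calls depended on the scaling and on single sums. With sums scaled by total UMIs alone, the median of all genes moved to 0.90 for day 5 against day 1, and Il1rap stayed past the threshold (-1.52, edgeR adjusted p = 0.0215) while Il1a (-0.66) and Il1rn (-0.79) did not. Leaving out the 40 neutrophils of CD45+ day 5 or those of pool day 5 removed all 3 calls, as did classing cells by their own markers and leaving out the term for the set. With the RNA of the other class subtracted no call was kept, at changes close to those above: -2.52 for Il1rap (edgeR adjusted p = 0.0581), -1.82 for Il1rn (edgeR adjusted p = 0.0815) and -1.59 for Il1a (edgeR adjusted p = 0.122). In monocytes/macrophages the 5 calls of day 5 against day 1 held with total counts, where the median of all genes was 0.23, and were lost without the term for the set. The 3 calls of day 3 against day 1 were lost with total counts, and without the pool's day 3 sum, without the term for the set, and with 0.05 UMIs added in naming clusters. Nothing in the labels says that the 2 sums of a day came from different mice. With the term for the set, these p-values rest only on how far changes between days differed between the 2 sets. That spread may be technical.

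**Figure D4:**
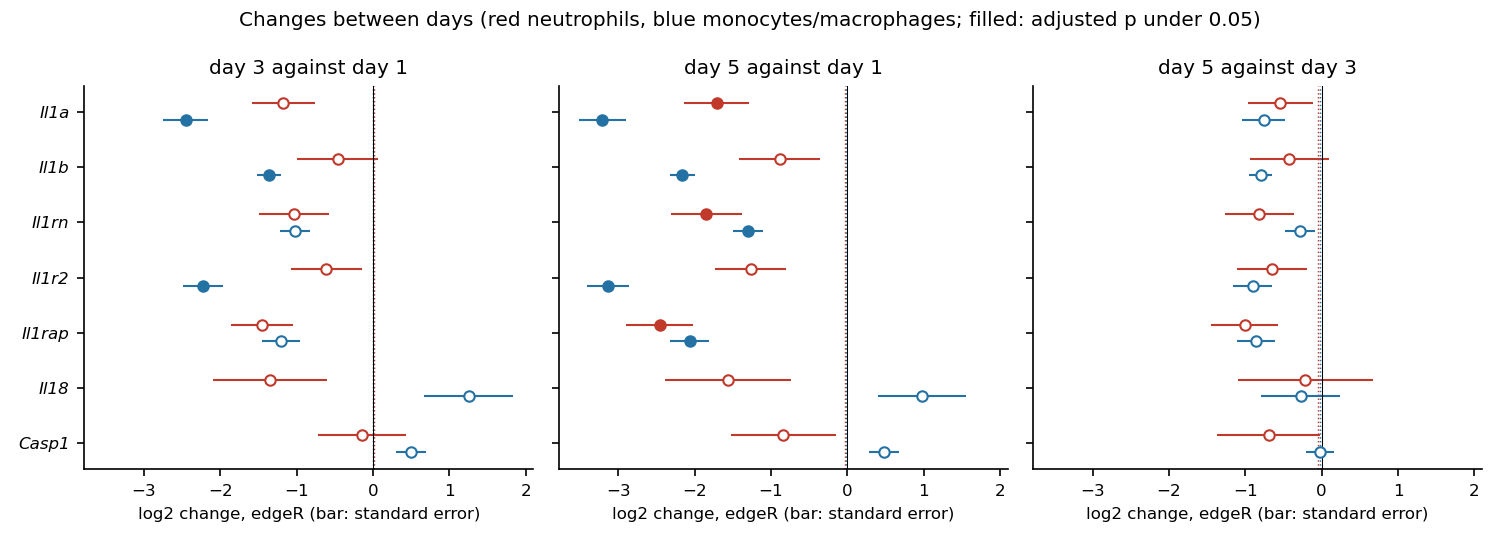
Fitted log2 change (edgeR, points) with its standard error (bars) for 7 genes between days, in neutrophils (red) and monocytes/macrophages (blue), with filled points past an adjusted p of 0.05 and dotted lines at the median of all genes tested. The filled points are all to the left of 0, with 5 blue and 3 red ones for day 5 against day 1.

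Whether the classes changed by different amounts was tested as an interaction over the 12 sums. Each neutrophil sum shares its library or hashtag with a monocyte/macrophage sum. The fit had a set term per class and none for that pairing, so it took the paired sums as independent. By edgeR none of the 7 members passed for day 3 against day 1 (0.00988% of 10126 genes called, 3 members at an unadjusted p under 0.05), day 5 against day 1 (0.573% called, 4 members) or day 5 against day 3 (0.0% called, 0 members), so in this fit a call in 1 class and not in the other is not shown to be a difference between them. For Il1b, day 5 against day 1, the fitted difference, neutrophils less monocytes/macrophages, was 1.23 on the log2 scale (SE 0.47, edgeR adjusted p = 0.217). With sums scaled by total UMIs alone it was 2.03 and passed (edgeR adjusted p = 0.0303), as did the differences of Il1a (2.27, edgeR adjusted p = 0.0235) and Il1r2 (2.61, edgeR adjusted p = 0.0155), so for these genes the call depended on the scaling.

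The monocyte/macrophage class changed its makeup between days. In the CD11b+ heart pool 158 of its 223 day 1 cells were in cluster 0, led by the monocyte genes Plac8, Chil3 and Ms4a4c, and 838 of its 1208 day 5 cells in cluster 2, led by Fabp5, Selenop and Ms4a7. Inside cluster 0 Il1b was at 7697, 5825 and 6877 CPM on days 1, 3 and 5, and inside cluster 2 at 848 and 1049.5 CPM on days 3 and 5. Il1b was thus higher in the first cluster on days 3 and 5, and within either cluster day 5 was not below day 3. Il1a inside cluster 0 was at 354, 118 and 130 CPM and Il1rn at 722, 622 and 829 CPM, so that Il1a and Il1b were highest on day 1 within it and Il1rn on day 5. Cluster 5, led by Saa3, Ccl24 and Arg1, also held all these days, with 51, 59 and 41 cells. It made up 22.9% of the class on day 1 and 3.39% on day 5, and its levels by day are not given here.

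In the CD45+ libraries 200 of the 218 day 1 cells were in cluster 14, which held 1 cell of another day, so day 1 could not be compared with later days within a cluster. Among the naming markers raised in cluster 14 were 9 of monocytes/macrophages, with Saa3, Arg1 and Chil3 among its 10 leading genes, and 4 of neutrophils, with none among those 10. Cluster 8, led by Plac8, Chil3 and Sirpb1c, held 6658, 6704 and 10708 CPM of Il1b on days 3, 5 and 7, against 1956, 1514 and 3730 CPM in cluster 1, led by Ms4a7, Spp1 and Gpnmb. Il1r2 was at 216, 202 and 150 CPM in cluster 8 and at 55.6, 35.4 and 26.3 CPM in cluster 1. In cluster 0, led by Hspa1a, Mgl2, Cbr2 and Folr2, 508 steady-state cells held 4592 CPM of Il1b and 96.6 CPM of Il1rn, and 88 cells of day 7 held 2422 and 336 CPM. The level of Il1b was lower and that of Il1rn higher at day 7 within it, with intervals that did not overlap and 1 library on each side. These values are descriptions, with 1 library a day in each set.

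Neutrophils also fell into clusters by day. In the CD45+ libraries 215 of 216 day 1 cells were in cluster 13 and 131 of 135 day 3 cells in cluster 12, so days 1 and 3 could not be compared within a cluster. In the pool cluster 3, led by Retnlg, S100a9 and Gm5483, held all 3 days, with Il1b at 24932.5, 14444 and 10859 CPM and Il1a at 1441, 647 and 314 CPM on days 1, 3 and 5. Il1rap in it was at 361, 230 and 190 CPM. In this cluster all 3 were in the order day 1, day 3, day 5, while Il1r2 (3212.5, 2292 and 2610.01 CPM) was not. Cluster 1, led by Tnf, Gm12840 and Icam1, held 24, 763 and 148 cells of those days. Il1b in it was at 23278.5, 21625 and 18095 CPM and Il1a at 2096, 1257 and 755 CPM, in that order too. Il1rap was at 42.5 CPM on day 1, from 3 UMIs (95% interval 8.76 to 124), and at 165 and 98.6 CPM on days 3 and 5, so it was not in that order there.

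In the blood and heart pool, over its 7 hashtags, Il1b in neutrophils ran from 2351 to 3899 CPM with a median of 2854, with hashtag 6 highest, hashtag 3 next at 3333 CPM, and hashtag 7 at the median. In monocytes/macrophages Il1b was at 85.6 to 148 CPM under hashtags 1 to 5 and at 546 and 369 CPM under hashtags 6 and 7. Il1rn in this class was at 7.29 to 12.9 CPM under the first 5 and at 82.4 and 59.9 CPM under the other two. Both genes were higher under hashtags 6 and 7 with no overlap. The class lay in different clusters there: cluster 8, led by Thbs1, Spp1 and Arg1, held 47.6% and 57.9% of its cells under hashtags 6 and 7 and 0.969% to 2.96% under the first 5, where cluster 7, led by Chil3, Ccr2 and F13a1, held 51.5% to 85.2%. Il1b was at 544 CPM and Il1rn at 93.6 CPM in cluster 8, against 77.6 and 9.32 CPM in cluster 7.

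Il1r2 in neutrophils was at 188 to 379 CPM under hashtags 1 to 5 and at 1297 and 1037.5 CPM under 6 and 7. A single neutrophil cluster, number 6, led by Cxcl2, Basp1, Il1r2 and Ier3, held 279 and 248 cells of hashtags 6 and 7 and 2 to 6 cells of each other hashtag. In it Il1r2 was at 2387 CPM under hashtag 6 and 1383 CPM under hashtag 7. In cluster 0 of the same pool, present under all 7 hashtags, Il1r2 was at 431 and 454 CPM under hashtags 6 and 7 and at 162 to 346 CPM under the first 5. Il1rap was at 394 CPM in neutrophils under hashtag 6 and at 127 to 227 CPM under the other six, so that here hashtag 7 lay with the first 5.

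Il1a was low in this pool, where neutrophils had 0 to 7.90 CPM and monocytes/macrophages 0 to 9.03 CPM, against 624 CPM and 59.5 CPM as the lowest values of days 1 to 5 in the heart sets. The highest values were again under hashtags 6 and 7. Casp1 in monocytes/macrophages was at 68.1 to 112 CPM with hashtags 6 and 7 lowest, and Il18 at 25.0 to 57.0 CPM with hashtag 7 highest.

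**Figure D5:**
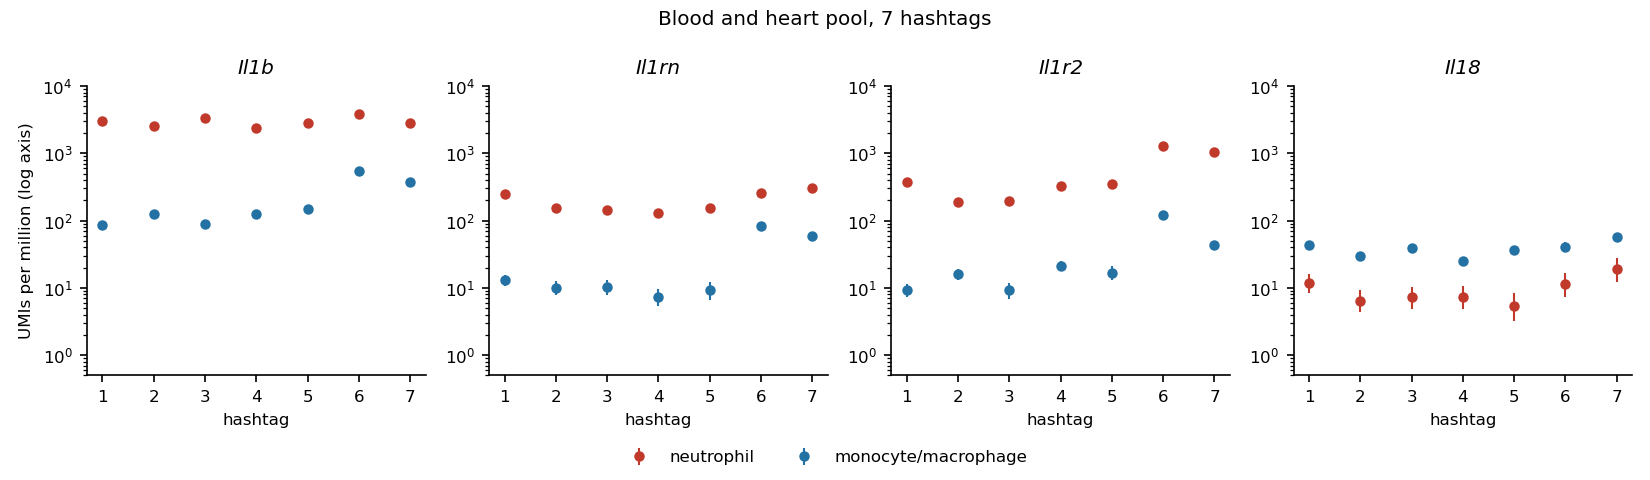
Level of 4 genes in CPM (log axis) by hashtag (7) in the blood and heart pool, in neutrophils (red) and monocytes/macrophages (blue); bars are exact Poisson 95% intervals. Il1r2 lies at 188 to 379 CPM in neutrophils of hashtags 1 to 5 and at 1297 and 1037.5 CPM in those of hashtags 6 and 7, while Il1b in neutrophils lies at 2351 to 3899 CPM over all 7.

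The rest of the pathway was followed by 32 genes in 3 groups. Of 10 inflammasome and release genes, 2 fell in monocytes/macrophages from day 1 to day 5 and none rose, where 6.24% of all genes tested were lower and 10.8% were called: Pycard, the adaptor that links sensor to caspase, by 1.03 on the log2 scale (SE 0.15, edgeR adjusted p = 0.0184), and Nlrp3, the sensor, by 0.95 (SE 0.19, edgeR adjusted p = 0.0377). The median of the 10 was 0.27. Nlrp3 was at 463 to 2275 CPM in neutrophils and 159 to 441 CPM in monocytes/macrophages. None of the 6 genes of this group tested in neutrophils passed.

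Of 11 receptor signalling genes, Irak3, an inhibitor of signalling also called IRAK-M, fell from day 1 to day 5 in monocytes/macrophages by 1.93 (SE 0.44, edgeR adjusted p = 0.0478, 11 tested) and in neutrophils by 2.12 (SE 0.50, edgeR adjusted p = 0.0176, 10 tested). It was 1 of 11 and 1 of 10, where 10.8% and 7.65% of all genes were called, and nothing is read from the counts. The medians were -0.48 and -0.24. Of 11 other family genes, Il1f9, which encodes the interleukin-36 gamma cytokine, fell from day 1 to day 5 by 3.30 in monocytes/macrophages (SE 0.25, edgeR adjusted p = 0.00497, 4 tested) and by 2.34 in neutrophils (SE 0.43, edgeR adjusted p = 0.00464, 3 tested). It was at 202 to 886 CPM in neutrophils and 2.71 to 23.5 CPM in monocytes/macrophages, on days 1 to 5, with no UMI in those of steady state and day 7. Its level in monocytes/macrophages was 2.34%, 0.729% and 0.489% of that in neutrophils on days 1, 3 and 5 of the CD45+ libraries and 3.08%, 2.10% and 1.34% in the pool. The 19 neutrophil markers stood at 9.07%, 2.64% and 1.36% and at 2.97%, 2.68% and 1.79%, and their part in the falls of Il1f9 in monocytes/macrophages was not tested. Il18rap, a chain of the interleukin-18 receptor, fell in neutrophils by 1.85 (SE 0.53, edgeR adjusted p = 0.041). From day 1 to day 3, Il1f9 alone of the 25 tested changed in monocytes/macrophages and fell by 1.83 (SE 0.23, edgeR adjusted p = 0.0449), where 0.742% of all genes were called. All calls of pathway genes are given for the main setting only. With total counts alone, 93 of all genes in place of 344 were called lower in neutrophils for day 5 against day 1. In monocytes/macrophages 316 in place of 656 were lower for day 5 against day 1, and 2 in place of 61 for day 3 against day 1.

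The genes whose level ran most like a member's were taken over 19 sums of a class and a day in the CD45+ libraries and the CD11b+ heart pool, by Pearson's r of log2 CPM. For Il1a these were Cxcl2 (r = 0.98), Fpr2 and Cdc42ep2, and for Il1b Il13ra1 (r = 0.96), Ptafr and Clec5a. For Il1rn they were Slfn2 (r = 0.97), Ccr1 and Alas1, for Il1r2 Ifitm1 (r = 0.96), S100a11 and Lmnb1, and for Il1rap Rab44 (r = 0.96), Il23a and Vps4b. Il18 and Casp1 had lower values, with Dnase1l1 (r = 0.87) and Ctss (r = 0.87) first. The 19 sums share libraries and differ in class and depth, and the values are a description.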

How the data were processed

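Unique molecular identifiers (UMIs) per gene and cell were measured in 7 libraries, and the deposited matrices hold the authors' raw counts, made with Cell Ranger per the submitters' processing notes (version 3.0.2 in both pools, per the file headers) on mm10 or GRCm38. Hashtag and surface antibody counts in the deposited tables of both pools are likewise raw UMI counts. Barcodes needed 200 detected genes or more, and those whose UMIs were over 10% mitochondrial were dropped. Doublets were marked by scrublet in scanpy 1.11.5 in the CD45+ libraries (18 of 4763 cells, 0.378%), and in the pools barcodes with 1 positive hashtag were used, so doublets of cells with the same tag stay in.

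Cells were clustered (Leiden, resolution 0.5, 30 components, 2000 variable genes) without the 8 genes and the 32 pathway genes, and clusters were named from marker lists. UMIs were summed per class, day and set, giving 2 sums per day for days 1, 3 and 5, and were tested with edgeR 4.0.16 (R 4.3.3) by the quasi-likelihood test, two-sided, with TMM scaling, its filter on low counts, and terms for day and set. Adjusted p-values are Benjamini-Hochberg over all genes tested, with a threshold of 0.05. The script was tested on simulated data in which 200 genes changed by 2 on the log2 scale. For day 3 and day 5 against day 1, it recovered 60.5% and 45.5% of them in neutrophils. In monocytes/macrophages it recovered 67.5% and 66%. Of the genes it called, 1.63% and 0% were unchanged ones in neutrophils, and 8.16% and 3.65% in monocytes/macrophages. The 8.16%, for day 3, exceeded the threshold. Many true changes of this size were thus missed, so a gene without a call is not shown to be unchanged. Levels are CPM of a sum with exact Poisson 95% intervals, and intervals and the floor of 3 counts cover counting error only. Depth per sum ran from 104690 to 39100204 UMIs.

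The 8 genes were all named, pathway genes were named where they passed the threshold or to give their level, and the 3 most alike genes were taken for each member with a mean of at least 20 CPM, over log2(CPM + 1). Members, lists and tests were chosen with earlier results of these data known. The alternatives were another scaling, no filter, no term for the set, the 2 days alone, DESeq2 1.42.0, each sum left out, other cell classes and mitochondrial ceilings. Subtraction of the RNA of the other class, with its amount taken from the markers of that class, was added after seeing the data. Steady state and day 7 (1 library each) and the 7 hashtags with no stated condition entered no test.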

Additional observations from a re-analysis of the deposited data

Results flagged for a closer look

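Dendritic cells of the CD45+ libraries entered no comparison, and 4 of the 8 genes lay above their level in day 7 B cells there, with 95% intervals that did not overlap. Il1r2, the decoy receptor, was at 1302 CPM in 35 dendritic cells of day 5 and at 804.9 CPM in 58 of day 7, against 27.1 CPM in B cells, or 48.0 and 29.7 times as much. The class joined 2 clusters that differed in Il1r2, with 934 CPM in cluster 6, led by Cd209a, Ccl17 and H2-Ab1, and 47.1 CPM (24.3 to 82.3) in cluster 10, led by Fscn1, Ccr7 and Tbc1d4. Il1b was at 3532 CPM on day 5 and 3978 CPM on day 7, against 459 CPM. Il1rn was at 207.1 and 155.2 CPM, against 75.1 CPM, and Il18 at 24.17 and 21.01 CPM, against 3.92 CPM. S100a8, a neutrophil gene, was at 229 CPM in dendritic cells and at 147 CPM in B cells, each over all CD45+ libraries together. Day 7 gave 963 of the 1018 B cells and 58 of the 166 dendritic cells, so these values come from unlike days. The part of neutrophil RNA in the levels of the 4 genes was not tested. There was 1 library per day, so no test was made.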

How the results depend on the processing

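No call changed its direction under any of the 17 alternatives run for it. Of those, 16 kept the call of Il1a, Il1b and Il1rap in monocytes/macrophages for day 5 against day 1, and 15 that of Il1r2 and Il1rn. Each call of day 3 against day 1 in that class and of day 5 against day 1 in neutrophils was kept by 10 to 12. For neutrophils the alternative with 0.05 UMIs added in naming clusters gave the same fit as the main setting, so it is no separate check there. Replicate block: leaving out the term for the set, which pairs the sums, gave 0 members past the threshold in place of 3 (neutrophils, day 5 against day 1), 3 (monocytes/macrophages, day 3 against day 1) and 5 (monocytes/macrophages, day 5 against day 1). With total counts these 3 comparisons had 1, 0 and 5, and the difference between classes for day 5 against day 1 had 3 in place of 0. Without the filter the counts were 1 for neutrophils on day 3 against day 1, 5 and 1 for monocytes/macrophages on day 3 against day 1 and day 5 against day 3, and 2 and 4 for the differences on day 3 and day 5 against day 1. DESeq2 gave 1, 5 and 1 for the first 3 of these. Using the 2 days alone gave 4 for monocytes/macrophages on day 5 against day 3. Classes from each cell's own markers gave 0 for neutrophils on day 5 against day 1, and 0.05 UMIs added in naming gave 0 for monocytes/macrophages on day 3 against day 1. Subtracting the RNA of the other class gave 0 in both. Leaving out each sum in turn gave 0 to 3 and 0 to 5 members in neutrophils (day 3 and day 5 against day 1), 0 to 7, 4 to 7 and 0 to 4 in monocytes/macrophages (days 3 and 1, days 5 and 1, and days 5 and 3), and 0 to 3 for the differences on day 3 and on day 5 against day 1. The lowest came without pool day 3 (monocytes/macrophages, day 3 against day 1) and without either day 5 sum (neutrophils, day 5 against day 1), and the highest of 7 without pool day 1. The cause was not tested. Of 838 values not past the threshold, 52 changed sign and 52 passed under an alternative. Over all genes, the calls ran from 0 to 1257 for neutrophils and from 0 to 3690 for monocytes/macrophages on day 5 against day 1, in place of 474 and 1136. Of 182 levels with at least 10 UMIs, 165 stayed within 1.5 times under own-marker classes and 181 or more under each other setting. The 40 neutrophils of CD45+ day 5, with 4 UMIs each of Il1rap and Casp1, limit what that day can show.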
